A study of Mus musculus with 4 samples.

Results

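The Notch ligands Dll4, Jag1 and Jag2, the receptors Notch1, Notch2, Notch3 and Notch4, and the Hey target genes Hey1, Hey2 and Heyl were followed through the cell types of the mouse right ventricle (RV). They were found by symbol, as 10 of the 27998 genes counted, each with 1 row. The nuclei came from RVs of C57/BL6J mice, labelled WT, at postnatal day 21 (P21). There were 2 libraries after sham surgery and 2 after right ventricular volume overload (RVVO), made at P7 through a fistula between the abdominal aorta and the inferior vena cava. Whether a library held 1 mouse or a pool is not stated. The p-values between RVVO and sham within a cell type thus measure a spread between libraries that may be technical. Those for differences between endothelial subtypes come from fits with library as a block. They measure how much a subtype difference varied over these same libraries, not the spread of levels between them. The study's methods also describe cyclosporin A and saline injections, and the labels name neither for these libraries, so what else the 2 groups received is not known here. Sex went with surgery: Xist, counted from the inactive X chromosome, had 1475 and 1486 CPM (counts scaled to a library total of 1e+06) in the sham libraries and 0.825 and 0.643 CPM in the RVVO libraries, while the Y-linked gene Uty had 0.101 and 0.0517 CPM against 322 and 317 CPM. The 2 groups thus differed in sex as well as in surgery, and the effects of these cannot be told apart.

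Notch signalling passes between touching cells. A ligand of the Delta-like (Dll) or Jagged (Jag) family on one cell pulls on a Notch receptor on the next, the receptor is cut by ADAM proteases and γ-secretase, and its freed intracellular part joins the DNA-binding protein RBPJ and Mastermind-like (MAML) proteins to switch on genes such as those of the Hey and Hes repressors. In blood vessels the pathway is known for keeping arterial identity, for restraining sprouting through Dll4 and Notch1, and for maturing the smooth muscle coat through Jag1 and Notch3. In the heart it is known for shaping the endocardium, valves and trabeculae.

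All 10 are protein-coding genes, placed here on GRCm38 with the GENCODE annotation. Dll4 lies at chr2:119325784-119335962 on the plus strand, Jag1 at chr2:137081456-137116644 on the minus strand and Jag2 at chr12:112907819-112929776 on the minus strand. Notch1 lies at chr2:26457903-26516663 (minus), Notch2 at chr3:98013527-98150361 (plus), Notch3 at chr17:32120820-32166852 (minus) and Notch4 at chr17:34564268-34588503 (plus). Hey1 lies at chr3:8663359-8667256 (minus), Hey2 at chr10:30832359-30842801 (minus) and Heyl at chr4:123233556-123249875 (plus). The gene Gm17276 overlaps Notch3 on the opposite strand and held 20494 UMIs in the nuclei kept, against 13387 for Notch3. The sources used here do not say whether counting used strand, so reads of these overlapping genes may not be told apart.

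Promoters from RefSeq (GRCm38.p6) were found for 8 members and not for Hey1 or Heyl. In the 250 bases before the start, on both strands, the letters TGGGAA, the core of the RBPJ motif, stood in 21.6% of 32851 promoters, the longer GTGGGAA in 5.42%, and the E-box CACGTG bound by Hey proteins in 6.02%. TGGGAA is contained in GTGGGAA. Of the 8 members only Hey2 held TGGGAA, within GTGGGAA on the minus strand of the promoter between -207 and -201 from the RefSeq start, and none held CACGTG. A match describes the letters and is not a measured binding site. The promoters of Hey2 (chr10:30842802-30843033, minus strand), Notch3 (chr17:32166891-32167140, minus strand) and Dll4 (chr2:119325534-119325783, plus strand) are shown 5′ to 3′, since the first pair belongs to genes highest in smooth muscle and the last to a ligand highest in endothelium. Bases inside the GENCODE gene model are not shown, so the 232 bases of Hey2 stop short of the RefSeq start. Capitals mark the reverse complement of GTGGGAA.
Hey2: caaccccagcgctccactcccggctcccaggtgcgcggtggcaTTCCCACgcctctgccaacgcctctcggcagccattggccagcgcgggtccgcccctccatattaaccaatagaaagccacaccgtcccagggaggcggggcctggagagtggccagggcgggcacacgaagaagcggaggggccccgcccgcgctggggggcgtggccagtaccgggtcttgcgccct
Notch3: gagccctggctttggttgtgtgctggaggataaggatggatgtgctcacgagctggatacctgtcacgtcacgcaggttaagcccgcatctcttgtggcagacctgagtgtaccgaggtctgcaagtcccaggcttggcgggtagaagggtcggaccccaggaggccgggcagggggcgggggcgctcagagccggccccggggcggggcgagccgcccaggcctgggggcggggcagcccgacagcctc
Dll4: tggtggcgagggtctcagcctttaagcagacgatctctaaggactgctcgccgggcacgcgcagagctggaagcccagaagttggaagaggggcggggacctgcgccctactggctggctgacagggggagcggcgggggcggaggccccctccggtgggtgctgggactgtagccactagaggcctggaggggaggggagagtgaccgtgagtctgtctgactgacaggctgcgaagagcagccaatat

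The libraries held 51010039 to 64739206 UMIs over 53090 barcodes, with a median of 2262 to 4705 UMIs per barcode, and 43180 nuclei were kept. Clusters of nuclei made without the members were named from marker genes, and 36732 nuclei took a name, written here without the suffix "-like". There were 13515 cardiomyocytes (CMs), 10702 endothelial cells (ECs), 5483 fibroblasts, 1989 pericytes, 1557 macrophages, 1084 epicardial cells, 394 smooth muscle cells (SMCs), 346 lymphatic ECs and 294 glial cells, and 6448 nuclei stayed unnamed. The unnamed nuclei held from 26.6% (Notch2) to 42.1% (Notch3) of the UMIs of each member, with 42.0% for Heyl. Some unnamed clusters were led by pericyte genes, such as a cluster of 251 nuclei with a median of 4209 UMIs, against 2212 in named pericytes. The pericyte levels below leave out such nuclei. Library pairs shared 28 to 70 barcodes. Markers of CMs were counted in every class. The summed level of 10 CM markers in ECs was 31.9%, 23.0%, 29.4% and 28.4% of that in CMs. These are the libraries named sham 1 and 2 and RVVO 1 and 2, which is the order of all values per library. Whether such counts came from free RNA or from doublets left in was not tested. In 1283 nuclei with erythroid markers the summed level of the CM markers was 61.8% to 127% of the CM level, so these nuclei are left out of the levels below. Another 85 nuclei had adipocyte markers, 0, 37, 2 and 46 in the 4 libraries. They held 25 Notch3 and 30 Jag1 UMIs, and are left out of the levels, the order of cell types and the tests.

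Levels between cell types are given as CPM of a cell type's summed UMIs, as mean ± SD over 4 libraries, and are a description without a test, because the cell types came from clusters of these nuclei. Each compares 1 gene across cell types, not genes with each other. The ligands fell into endothelial and mural patterns. Dll4, the Delta-like ligand of arteries and sprouting tips, was highest in ECs at 48.8, 41.0, 33.2 and 37.1 CPM (40.0 ± 6.66). Its next level was 21.7 ± 5.94 CPM in lymphatic ECs, and the libraries of the 2 cell types did not overlap. In CMs it was 1.90 ± 0.586 CPM.

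Jag2, a Jagged ligand, was counted mainly in ECs. They held 40.5, 46.9, 36.4 and 30.8 CPM (38.6 ± 6.78), above every library of the other cell types. Macrophages came next with 8.52 ± 3.39 CPM, and pericytes, CMs and fibroblasts all had means under 2 CPM.

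Jag1, the ligand known for signalling to vascular smooth muscle, was highest in the mural cells themselves. SMCs had 82.2, 132, 99.8 and 106 CPM (105 ± 20.7) and pericytes 96.5, 107, 84.6 and 89.9 CPM (94.5 ± 9.68), and these overlapped. Lymphatic ECs had 52.1 ± 6.98 CPM and ECs 41.1, 37.2, 37.9 and 44.9 CPM (40.3 ± 3.52), without overlap between them. Each library of the mural cells was above each library of both endothelial classes. CMs held the least, 2.20 ± 0.696 CPM.

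The 4 receptors differed in their order of cell types and shared several of them. Notch1, the receptor of arterial and endocardial development, was highest in lymphatic ECs (149, 191, 167 and 221 CPM) and ECs (160.3, 162, 162 and 193 CPM), which overlapped at means of 182 ± 31.5 and 169 ± 16.0. Glial cells had 93.6 ± 29.1 and macrophages 81.5 ± 20.1 CPM, each overlapping the next cell type in the order. CMs were lowest at 6.54 ± 0.418 CPM.

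Notch4, a receptor known mainly from endothelium, stood apart in ECs at 91.0, 86.5, 96.9 and 87.0 CPM (90.4 ± 4.78). Pericytes held 31.4 ± 5.80 CPM and lymphatic ECs 10.8 ± 4.79 CPM. The endothelial level of Notch4 was thus above that of lymphatic ECs in every library, while for Notch1 the 2 cell types overlapped. After each nucleus was thinned to 1000 UMIs, a Notch4 UMI was found in 7.96%, 8.40%, 8.71% and 8.68% of ECs, against a mean of 0.284% of CMs. EC markers were at 151 to 234 CPM in CMs and at 425 to 673 CPM in pericytes, so CMs carried fewer counts of EC genes than pericytes did. The exact binomial 95% intervals of the 4 EC shares ran from 7.06% to 10.2%, for counting error only, and without thinning the mean share was 20.2%. Thinning left out 57, 257, 5 and 0 ECs with fewer UMIs.

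Notch2, a broadly used receptor, was highest in macrophages at 352, 321, 296 and 330.0 CPM (325 ± 23.3). SMCs (167 ± 23.1), fibroblasts (141 ± 18.5), CMs (137 ± 18.4) and epicardial cells (135 ± 21.8) followed with overlapping libraries. Macrophages were above all of these in every library. CMs held 144, 138, 155 and 111 CPM and 47.6% of all Notch2 UMIs. They were also the largest class, with 13515 nuclei, and had the highest median depth, 4786 UMIs per nucleus. ECs were lowest at 26.3 ± 5.95 CPM. The EC level was 12.9%, 20.3%, 21.3% and 23.2% of that in CMs. These shares were below those of the CM markers in ECs in each library, and the part of free RNA in the EC level was not tested.

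Notch3, the receptor of vascular smooth muscle and pericytes, was far higher in mural cells than elsewhere. It stood at 1433, 1438, 1338 and 1236 CPM in SMCs (1361 ± 95.2) and at 679, 919.6, 678 and 827 CPM in pericytes (776 ± 119), without overlap. The next of the cell types compared, glia, had 42.5 ± 33.5 CPM, and pericytes were at 18.2 times that level. At 1000 UMIs per nucleus a Notch3 UMI was found in 73.4%, 67.6%, 68.6% and 73.0% of SMCs and in 1.42%, 0.750%, 0.936% and 0.981% of ECs. The intervals of the SMC shares ran from 50.7% to 83.4%, on 35 to 142 nuclei per library, and without thinning the mean was 87.6%. The overlapping Gm17276 had another order of cell types, with 216, 216, 225 and 153 CPM in CMs, where Notch3 had 20.9, 20.4, 21.4 and 17.1 CPM.

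The 3 Hey genes, which encode repressors that Notch switches on, also differed in where they were counted. Hey1 was highest in ECs at 40.8, 28.6, 28.7 and 22.8 CPM (30.2 ± 7.57), and lymphatic ECs had 13.8 ± 4.41 CPM. Hey2 was highest in SMCs at 145, 161, 125 and 137 CPM (142 ± 15.4), above pericytes at 35.2, 33.5, 31.1 and 38.0 CPM (34.4 ± 2.89). Heyl was highest in pericytes at 98.3, 155, 97.4 and 104 CPM (114 ± 27.8), above SMCs at 44.3, 76.3, 16.6 and 56.2 CPM, which overlapped fibroblasts at 45.5, 48.8, 40.6 and 37.1 CPM. Hey1 thus had its highest level in endothelium, Hey2 in smooth muscle and Heyl in pericytes, each without overlap with the next cell type. Hey2 in CMs was low, at 6.62 ± 2.20 CPM from 69, 82, 180 and 219 UMIs.

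**Figure D1:**
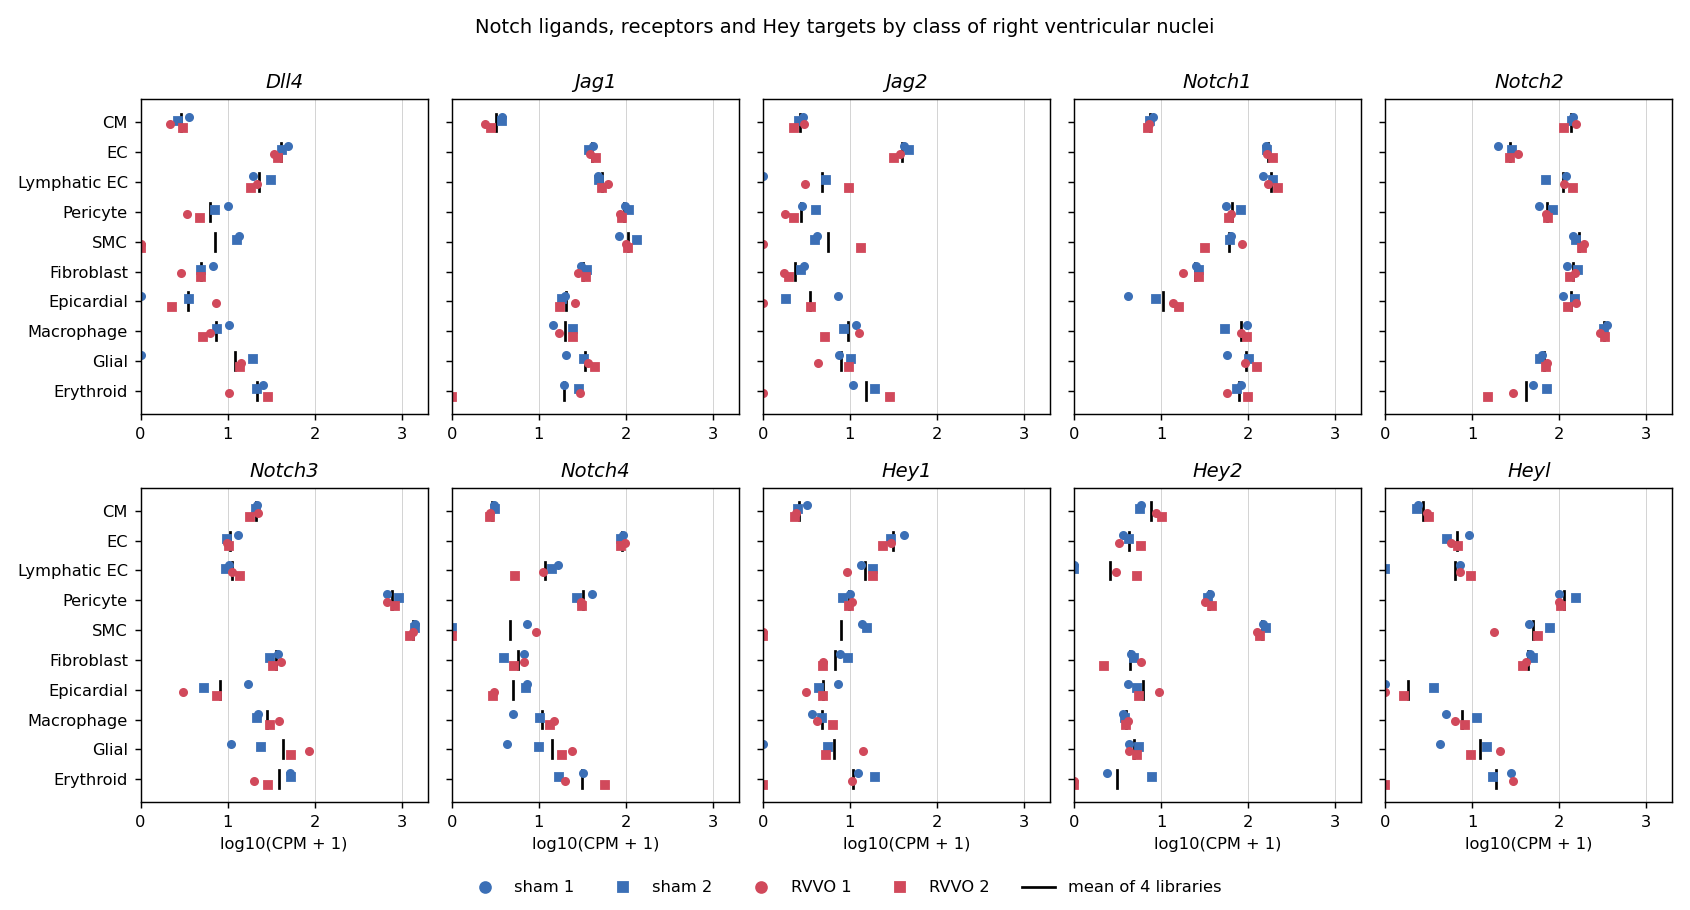
Level of each of the 10 genes in each cell type, with erythroid nuclei and without adipocytes, as log10(CPM + 1). There is 1 point per library coloured by group and a bar at the mean of the 4 libraries. Dll4, Jag2, Notch4 and Hey1 peak in ECs, Notch3 and Hey2 in SMCs, Heyl in pericytes and Notch2 in macrophages, where all 4 libraries lie between 296 and 352 CPM.

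The genes most like each member were found by Pearson correlation of log2(CPM + 1) over 12 cell type means, with ECs taken as 3 subtypes, among 12654 genes. The 12 include the erythroid nuclei, which were left out of the levels above. These points share libraries and any free RNA, and r is a description. The closest to Dll4 were Btnl9 (0.995), S1pr1 (0.984) and Cdh5 (0.983), of which Cdh5 encodes VE-cadherin. Notch4 was closest to Tspan13 (0.953), Dach1 (0.95) and Cd300lg (0.949), Jag2 to Ceacam1 (0.984), Slc26a10 (0.962) and Rgcc (0.957), and Hey1 to Fam65a (0.956), Tmem204 (0.954) and Adcy4 (0.952). Notch1 was closest to Sh2d3c (0.945), Elk3 (0.943) and Il2rg (0.935). The mural members had other neighbours, with Limd1 (0.964), Bmp5 (0.964) and Mrvi1 (0.961) for Notch3, Cacna1h (0.928), Ndrg3 (0.908) and Tmc5 (0.898) for Hey2, and Pdgfrb (0.945), S1pr3 (0.925) and Aspn (0.924) for Heyl. Pdgfrb encodes the platelet-derived growth factor receptor β of pericytes. Cdh5 and Pdgfrb were among the markers that named ECs and pericytes, so their high r was favoured by the naming. Jag1 was closest to Rela (0.946), Top2b (0.931) and Map1b (0.930), and Notch2 to Rsph3a (0.921), Mtfr2 (0.918) and Zdhhc13 (0.916).

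ECs with a UMI of Ptprb, an endothelial phosphatase gene, were split by 1 UMI of marker genes. Gja5 or Sox17 made 1418 arterial nuclei, Npr3 or Tmem108 made 1067 endocardial nuclei, and 5309 nuclei had none of these. Another 159 nuclei with both kinds were left out, as were 2749 ECs without Ptprb. Endocardial nuclei were 8.96%, 8.34%, 19.3% and 23.7% of the ECs with Ptprb in the 4 libraries, and arterial nuclei 18.6%, 18.3%, 16.6% and 16.9%. The median UMIs per nucleus were 2713 in arterial, 2963 in endocardial and 2239 in other ECs. Depth thus moved with the split, and sums over nuclei thinned to 1000 UMIs are given below for the members called that could still be tested. For these the split was made again on the thinned counts, so a nucleus that lost a marker UMI changed subtype or dropped out. Thinned values thus compare other sets of nuclei, not the same subtypes at equal depth.

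The names were checked on other genes with edgeR's quasi-likelihood test on summed counts, with library as a block and Benjamini-Hochberg adjustment over 10647 genes. Of 10 arterial markers, 8 were higher in arterial than in other ECs, as was 1.74% of all genes. All 7 endocardial markers tested were higher in endocardial ECs, among them Nrg1, the neuregulin ligand, and all 8 capillary markers were lower, against 16.1% and 16.7% of all genes in those directions. The arterial set also had 3 of the 8 capillary markers higher (Fabp4, Btnl9 and Gpihbp1). In the endocardial set 3 of the 4 venous markers tested were higher (Vwf, Nr2f2 and Vcam1). Of the 10 arterial markers 3 were higher there (Gja4, Bmx and Tm4sf1), while Sema3g, Fbln5, Unc5b and Cxcl12 were called lower. Neither set thus carried its own list alone.

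Arterial ECs held more Jag1, Hey1 and Notch1 than other ECs. Jag1 was at 57.3, 64.0, 54.1 and 77.7 CPM in arterial ECs and at 37.5, 28.8, 31.8 and 38.2 CPM in other ECs. Hey1 was at 63.1, 46.1, 49.9 and 38.8 CPM against 37.7, 27.0, 30.7 and 25.3 CPM. Notch1 was at 210.4, 185, 208 and 218 CPM against 148, 154, 138 and 175 CPM. Each was higher in 4 of 4 libraries, and for Jag1, Hey1 and Notch1 alike the lowest arterial library was above the highest library of other ECs. The share of all genes without such overlap was not counted. By edgeR the difference was 0.89 ± 0.12 (log2, ± SE) for Jag1 (adjusted p = 5.72e-06), 0.73 ± 0.13 for Hey1 (adjusted p = 0.000511) and 0.43 ± 0.08 for Notch1 (adjusted p = 0.000297), or 1.85-, 1.66- and 1.35-fold. These were 3 of 10 members called, where 2.63% of the 10647 genes were called.

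Dll4 was at 72.1, 51.6, 47.9 and 46.3 CPM in arterial and 48.9, 41.3, 40.9 and 44.8 CPM in other ECs, higher in 4 of 4 libraries. Its difference of 0.35 ± 0.13 did not pass (edgeR adjusted p = 0.204). Hey2, known from arterial specification, had 10, 8, 3 and 3 UMIs in arterial against 10, 6, 3 and 5 UMIs in other ECs, a difference of 1.5 ± 0.50 that did not pass (edgeR adjusted p = 0.116). The other 5 members had log2 differences from -0.07 for Notch2 to 0.51 for Notch3 and did not pass. After thinning to 1000 UMIs, 6 members had enough counts and none was called, with Jag1 at 0.77 ± 0.33 (edgeR adjusted p = 0.432), Hey1 at 0.98 ± 0.39 (adjusted p = 0.350) and Notch1 at -0.0092 ± 0.19 (adjusted p = 0.998), where 1.05% of 4779 genes were called. With the subtypes taken from sub-clusters of ECs 6 members were called, where 11.3% of genes were. Pericyte markers moved with the arterial set, at 623 to 1160 CPM over its libraries against 474 to 862 CPM in other ECs, and their part in the result was not tested.

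**Figure D2:**
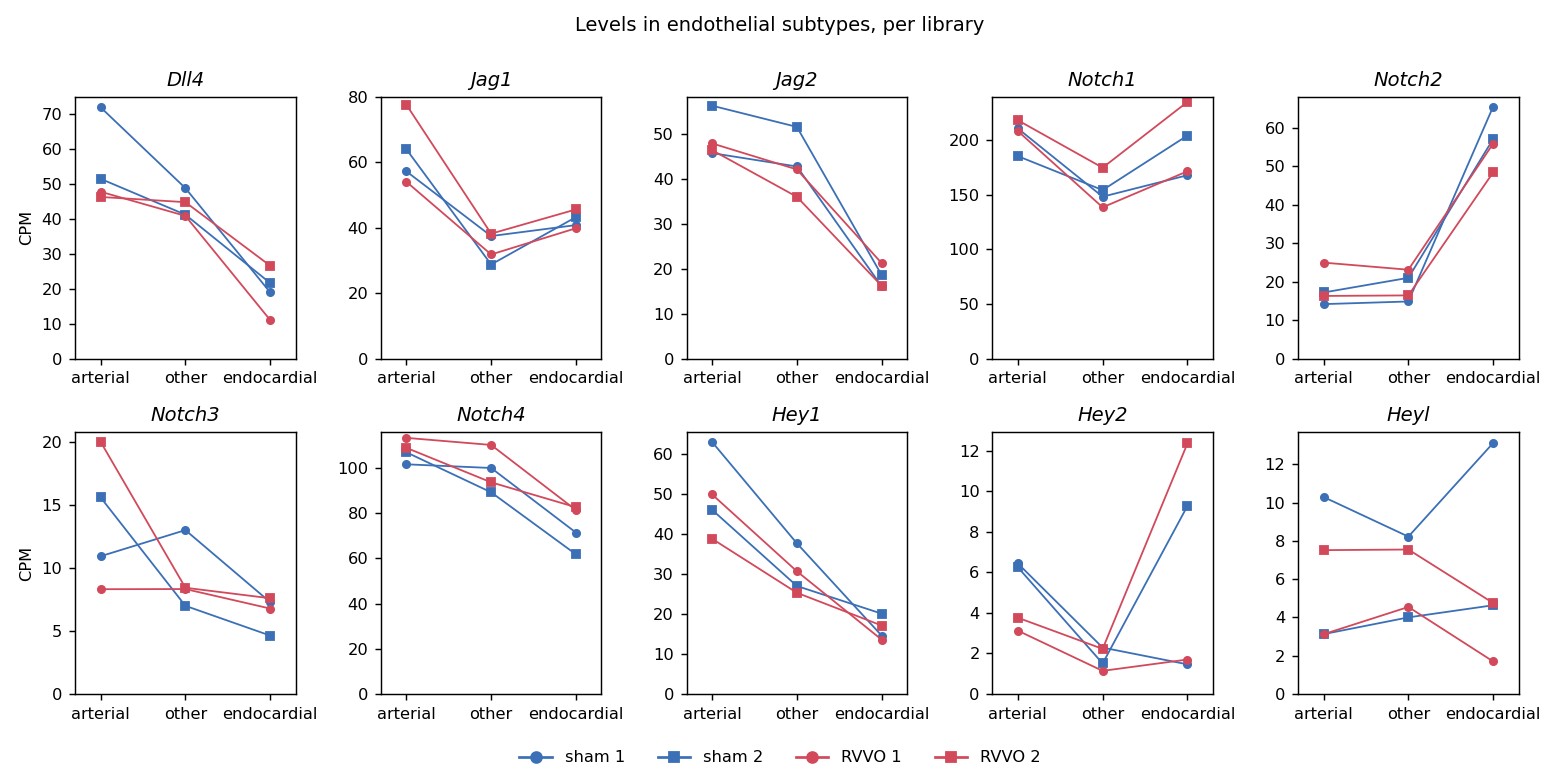
CPM of each member in arterial, other and endocardial ECs, with 1 point per library coloured by group and lines joining the points of a library. Notch2 lies between 48.5 and 65.6 CPM in endocardial ECs and at or under 25.0 CPM in the other 2 subtypes, while Dll4, Jag2 and Hey1 are lowest in endocardial ECs.

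Endocardial ECs differed from other ECs in more of the set, with Notch2 higher and the ligands Dll4 and Jag2 lower. Of the 10 members 7 were called, where 32.8% of the 10647 genes were called. Notch2 was at 65.6, 57.2, 56.0 and 48.5 CPM in endocardial ECs and at 14.8, 21.0, 23.1 and 16.4 CPM in other ECs. Every endocardial library was above every library of other ECs, by 1.56 ± 0.16 on the log2 scale or 2.96-fold (edgeR adjusted p = 2.77e-10). The share of all genes without overlap between endocardial and other ECs was not counted, which also holds for the ligands below. In endocardial ECs Notch2 was at 45.6%, 41.6%, 36.2% and 43.5% of its CM level, above the 27.0%, 18.7%, 25.2% and 24.1% of the CM markers there. In other ECs it was at 10.3% to 15.3%, below the 23.6% to 32.3% of the CM markers.

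Dll4 was at 19.0, 21.6, 11 and 26.6 CPM in endocardial ECs, against 40.9 to 48.9 CPM in other ECs. Jag2 was at 16.0, 18.5, 21.2 and 16.2 CPM, against 36.0 to 51.5 CPM. Neither ligand overlapped between the 2 subtypes, with differences of -1.18 ± 0.19 for Dll4 (edgeR adjusted p = 2.12e-06) and -1.24 ± 0.17 for Jag2 (adjusted p = 1.94e-07), to 0.440 and 0.424 of the level in other ECs. Jag1, the ligand that was higher in arterial ECs, was at 40.8, 43.3, 39.9 and 45.6 CPM in endocardial ECs, a difference of 0.30 ± 0.15 that did not pass (adjusted p = 0.126).

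Hey1 was also lower in endocardial ECs, at 14.6, 20.1, 13.6 and 17.1 CPM (-0.90 ± 0.19, edgeR adjusted p = 0.000309). Notch4 was lower at 71.4, 61.8, 81.4 and 82.7 CPM against 100, 89.3, 110.2 and 93.7 CPM (-0.40 ± 0.10, adjusted p = 0.00200), and Notch1 was higher at 168, 204, 171 and 235 CPM (0.32 ± 0.08, adjusted p = 0.00185). Both differences had the same direction in 4 of 4 libraries. Hey2 was called higher (1.75 ± 0.52, adjusted p = 0.00833) on 1, 6, 2 and 13 UMIs against 10, 6, 3 and 5, in 3 of 4 libraries, and too few counts were left to test it in several alternatives. After thinning to 1000 UMIs, which left 4779 genes and 6 of the members to test, only Jag2 was called (-1.69, adjusted p = 0.0131), where 24% of genes were. Notch2, Hey2, Notch3 and Heyl then had too few counts, and Dll4 was at -0.40 (adjusted p = 0.537), Hey1 at -0.19 (adjusted p = 0.843), Notch4 at -0.42 (adjusted p = 0.239) and Notch1 at 0.34 (adjusted p = 0.174). Notch3 and Heyl did not pass, at -0.47 ± 0.35 and -0.13 ± 0.40.

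**Figure D3:**
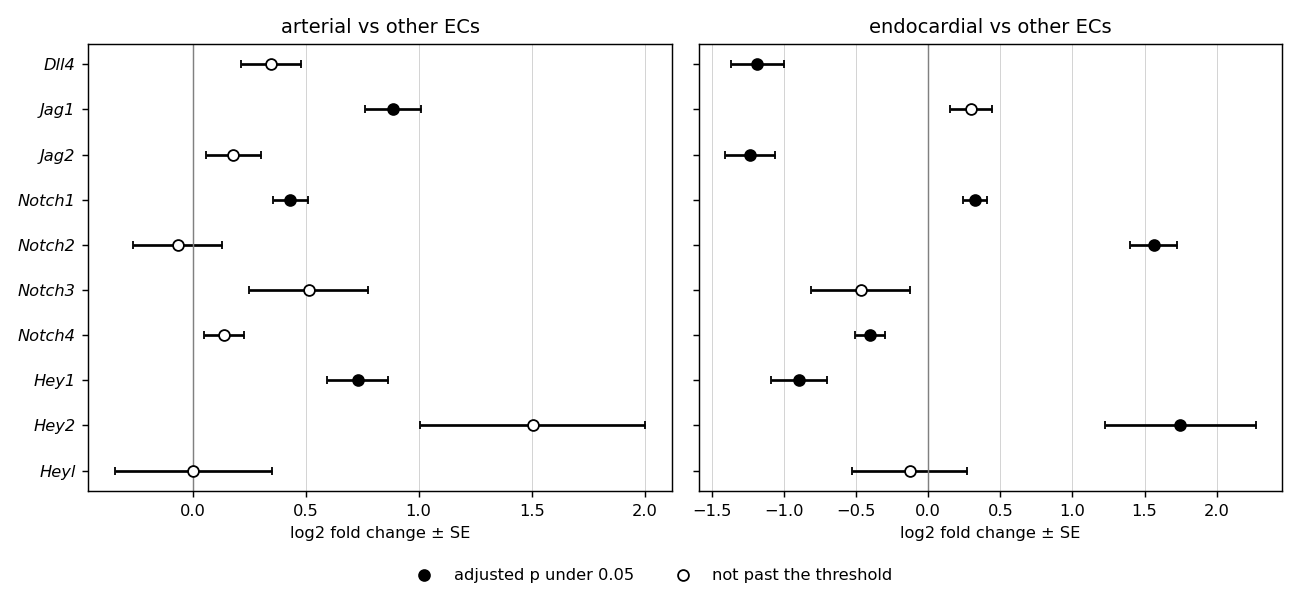
Log2 fold change ± SE of each member in arterial and in endocardial ECs against other ECs, from edgeR over 4 libraries, with filled points for adjusted p under 0.05. Jag1, Hey1 and Notch1 are above 0 and filled in the arterial contrast, and Notch2 at 1.56 and Jag2 at -1.24 lie on opposite sides in the endocardial contrast.

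Sub-clusters of ECs, named from arterial, capillary, venous and endocardial markers, gave a finer description without a test. Jag1 was at 118, 82.4, 84.9 and 119.8 CPM in the arterial, 47.3 to 55.8 CPM in the venous and 19.8 to 28.7 CPM in the capillary sub-clusters. Hey1 was at 98.8, 64.4, 84.9 and 59.0 CPM in the arterial and 27.8 to 38.0 CPM in the capillary ones. Dll4 differed from both in that the capillary sub-clusters (48.4 to 53.4 CPM) overlapped the arterial ones (50.4 to 61.4 CPM), while the venous ones held 9.77 to 23.7 CPM.

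Of 48 other Notch pathway genes, 39 could be tested in the subtypes. None was called in arterial ECs, where the lowest adjusted p was 0.0946 for the coactivator Maml2. In endocardial ECs 14 were called of the 39, 6 higher and 8 lower, a share near that of all genes. Mfng, a Fringe enzyme that adds sugar to Notch receptors, was at 13.1, 12.4, 17.0 and 18.1 CPM in endocardial against 38.1, 38.0, 32.6 and 36.4 CPM in other ECs (-1.22, edgeR adjusted p = 1.11e-06). Nrarp, a Notch target and feedback inhibitor, was at 1.46, 6.18, 5.94 and 4.75 CPM against 13, 11.8, 11.7 and 15.5 CPM (-1.43, adjusted p = 0.000853). Both were lower in endocardial ECs in 4 of 4 libraries. Lower too were Neurl1b (-1.31), a ubiquitin ligase acting on ligands, the protease Adam17 (-0.51), the RBPJ corepressor Spen (-0.35) and Egfl7 (-0.28), a secreted endothelial protein that is also one of the EC markers. Higher were Maml2 (0.53), at 209.9, 224, 176 and 218 CPM against 154, 137, 133 and 142 CPM, and Psen2 (0.70), a γ-secretase subunit. After thinning 21 of the 48 could be tested and 2 were called, Maml2 (0.65, adjusted p = 0.00234) among them, while Adam17 was at -0.40, Spen at -0.26 and Egfl7 at -0.12.

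Hes1, another target of Notch, was lower in endocardial ECs (-0.44 ± 0.12, edgeR adjusted p = 0.00311). It was at 77.3, 61.8, 78.0 and 83.6 CPM there and at 131, 119.8, 96.6 and 76.4 CPM in other ECs, so the direction held in 3 of 4 libraries and not in RVVO 2. Rbpj (0.18, adjusted p = 0.185) and the ligand Dll1 (0.12, adjusted p = 0.825) did not pass.

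Whether RVVO changed these genes was asked within each cell type but adipocytes, with sham as the control, and no member was called in any. The share of all genes called was 0.0479% in CMs, 0.287% in ECs, 0.0846% in fibroblasts, 0.0912% in pericytes, 0.158% in SMCs, 0.171% in macrophages, 0.107% in epicardial cells, 0.0563% in glia, 0.257% in lymphatic ECs and 0.102% in erythroid nuclei. All 10 members had enough counts in CMs and ECs, 9 in fibroblasts, 8 in pericytes, 6 each in SMCs and macrophages and 3 each in the remaining cell types. At an unadjusted p under 0.05, edgeR gave 2 members in CMs, 2 in ECs, 1 in fibroblasts and 1 in glia, where 6.03%, 9.40%, 4.25% and 6.81% of all genes reached it. It gave 0 members in pericytes, SMCs, macrophages, epicardial cells, lymphatic ECs and erythroid nuclei, where 4.49%, 3.93%, 9.26%, 2.52%, 5.73% and 5.73% of genes did. DESeq2 called 0 members in these cell types, where it called from 0.0816% of genes in erythroid nuclei to 1.83% in ECs. Of the 48 other pathway genes 42 could be tested in CMs and 40 in ECs, and 0 were called in any cell type. At an unadjusted p under 0.05 there were 3 in CMs, 5 in ECs, 2 in glia, 1 in macrophages, 1 in pericytes and 0 in the other 5 classes.

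In CMs the member with the smallest p was Hey2, a repressor known from ventricular identity. It had 4.86 and 4.71 CPM in the sham group and 7.77 and 9.15 CPM in the RVVO group. The difference was 0.77 ± 0.21 or 1.70-fold (edgeR adjusted p = 0.744, unadjusted 0.0106). Over the alternatives the difference ran from 0.49 to 0.87 and the adjusted p from 0.492 to 1.0. CM nuclei sat largely in sub-clusters of their own library, of which the biggest had 3167 of 3410 nuclei from RVVO 2 and another 2232 of 2540 from RVVO 1. The markers of SMCs and pericytes, the cells with the most Hey2, were at 182, 112, 138 and 124 CPM and at 438, 398, 332 and 337 CPM in CMs, and the part of these in the result was not tested. Jag1 went the other way, at 2.82 and 2.75 against 1.43 and 1.80 CPM (-0.84 ± 0.29, adjusted p = 0.798). EC markers in CMs moved with Jag1, at 234, 166, 151 and 155 CPM. So did the pericyte markers given above, while those of SMCs overlapped between the groups. SMCs and pericytes were also the cells with the most Jag1, and the part of these markers in its difference was not tested.

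In ECs taken whole, Dll4, Jag2 and Hey1 had the most negative differences of the members between RVVO and sham. Dll4 was at 48.8 and 41.0 against 33.2 and 37.1 CPM (-0.43 ± 0.16, edgeR adjusted p = 0.438), Jag2 at 40.5 and 46.9 against 36.4 and 30.8 CPM (-0.45 ± 0.16, adjusted p = 0.413), and Hey1 at 40.8 and 28.6 against 28.7 and 22.8 CPM (-0.51 ± 0.23, adjusted p = 0.578). Dll4 and Jag2 did not overlap between the groups and Hey1 did. With 2 libraries per group this says little, and the share of all genes without overlap was not counted. Without sham 2, Hey1 was called (-0.76, adjusted p = 0.0092), in a fit that called 4.91% of all genes. The share of endocardial nuclei, in which all 3 genes were lower, moved with these values, and its part in them was not tested. So did sub-clusters of ECs: a capillary one led by interferon genes held 993, 525, 23 and 39 nuclei, a further capillary one 746, 162, 21 and 29, and another 58, 224, 25 and 662. Within other ECs the differences were -0.14 for Dll4, -0.32 for Jag2 and -0.27 for Hey1, within arterial ECs -0.43, -0.14 and -0.33, and within endocardial ECs -0.15, 0.10 and -0.20, with 0 members called in any subtype, where 0.614% of genes were called in arterial, 0.156% in endocardial and 0.263% in other ECs. At an unadjusted p under 0.05 these shares were 5.78%, 5.27% and 6.36%, with 0 members in each. Hes1 in ECs was at 125 and 106 against 89.0 and 76.3 CPM (-0.56 ± 0.16, adjusted p = 0.267) and was called in the same fit without sham 2 (-0.69, adjusted p = 0.0039).

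Notch3 in glia had the largest difference of any member, on few counts. It was at 9.83 and 22.9 CPM in the sham group and 85.2 and 52.1 CPM in the RVVO group, from 3, 5, 26 and 12 UMIs (2.11 ± 0.58, edgeR adjusted p = 0.594), and it was called with no filter on low counts (adjusted p = 0.0428), where 0.464% of genes were. Markers of SMCs in glia moved the same way, at 128, 50.5, 407 and 243 CPM, as did those of ECs, at 1111, 744, 1823 and 2201 CPM. Those of pericytes, which came next to SMCs in Notch3 level, did not, at 501, 555, 1013 and 404 CPM. The part of these markers in the result was not tested. Without the removal of doublets the difference was 0.92, with nuclei named singly rather than by cluster 0.44, and without 1 library from 1.57 to 2.70. Hey1 in fibroblasts was at 6.61 and 8.46 CPM in the sham group and 3.89 and 3.94 CPM in the RVVO group (-0.99 ± 0.34, adjusted p = 0.999). EC markers in fibroblasts were at 740.5, 594, 569.8 and 563 CPM, and their part in it was not tested. In SMCs, the cells with the most Notch3, it was at 1435 ± 3.83 CPM in the sham group and 1287 ± 72.3 CPM in the RVVO group (mean ± SD, n = 2 each), a difference of -0.16 ± 0.24 (edgeR adjusted p = 1.0). Hey2 in SMCs was at 153 ± 11.3 and 131 ± 8.95 CPM (-0.22 ± 0.31), and Notch2 in macrophages at 337 ± 21.9 and 313 ± 24.1 CPM (-0.14 ± 0.19, adjusted p = 0.860).

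**Figure D4:**
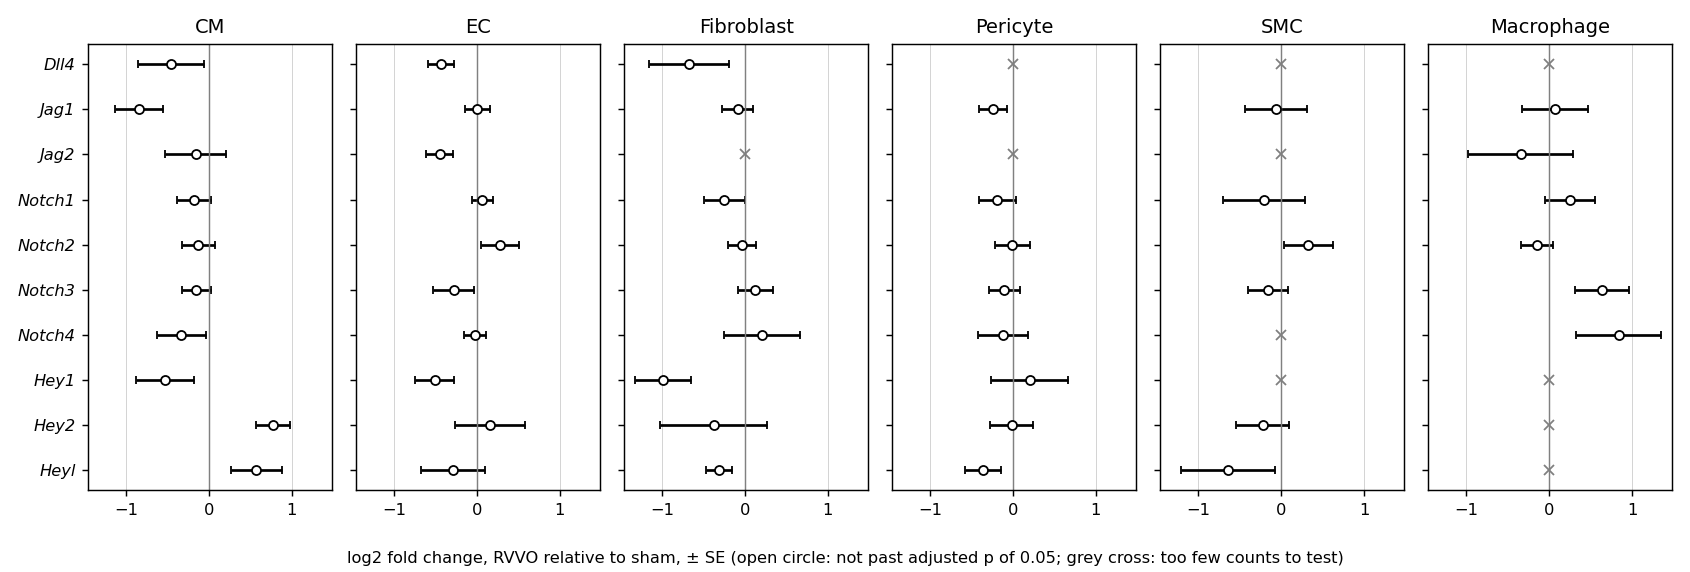
Log2 fold change ± SE of each member in RVVO against sham libraries within 6 cell types, from edgeR with 2 libraries per group, with a grey cross where counts were too few. No point has an adjusted p under 0.05, and Hey2 at 0.77 and Jag1 at -0.84 in CMs lie farthest from 0 in that panel.

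The arterial and endocardial contrasts were also compared between RVVO and sham libraries, as an interaction. In the arterial contrast 0 of 10647 genes were called, with 3.52% at an unadjusted p under 0.05, and in the endocardial contrast 0.103% were called, with 5.86% at that unadjusted p. No member was called in either, and none reached an unadjusted p of 0.05. The member with the smallest p was Heyl in the endocardial contrast, at -1.44 ± 0.81 (edgeR adjusted p = 0.899). Hes1 differed by 0.75 ± 0.22 there and did not pass (adjusted p = 0.333).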

How the data were processed

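Nuclear RNA of mouse RVs was measured with the 10x 3′ v3 chemistry in 4 libraries, grouped by the labels as sham or RVVO. The deposited matrices hold UMI counts per gene and barcode, whole numbers not normalized by the authors, in files written by Cell Ranger 5.0.0 per the file headers. The submitters' processing notes name Cell Ranger 3.0.1, STAR, Seurat 3.0.2 and the builds GRCm38 and mm10. Whether introns or strand were used in counting is not stated there. Of 27998 identifiers, 27722 were in GENCODE M21, which gave positions.

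Barcodes were kept where they had 200 genes or more and less than 10% of mitochondrial UMIs, and the highest doublet scores were removed at 0.8% per 1000 barcodes. Nuclei were clustered (2000 variable genes without the members and pathway list, 30 components, 15 neighbours, Leiden resolution 1, mixed clusters divided at 0.5) in scanpy 1.11.5 under Python 3.11.15. Thresholds for naming clusters were set after they had been seen. Counts were summed per library and class with at least 30 nuclei in every library, and tested over all genes with edgeR 4.0.16 in R 4.3.3 (TMM, its low-count filter, quasi-likelihood, Benjamini-Hochberg, threshold 0.05). The procedure was also run on simulated counts for CMs, ECs and the arterial contrast. These had the same spread for all genes and no library effects, so they do not give its error rates on these data. The genes that define the subtypes had no test. Depth of 51010039 to 64739206 UMIs per library limits genes under a few CPM. Intervals for shares cover counting error only.

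The members and lists were chosen with earlier results of these data known. The 10 members were always named, with up to 8 called pathway genes per comparison by smallest p, Rbpj, Hes1 and Dll1, the 3 most alike genes per member among those with at least 500 UMIs, and subtype markers and sex genes as checks. Alternatives were DESeq2 1.42.0, RLE scaling, no low-count filter, stricter barcode filters, no doublet removal, thinning, other namings of nuclei and subtypes, blocks, and leaving out each library.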

Additional observations from a re-analysis of the deposited data

How the results depend on the processing

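Of 429 counts of called genes, levels and shares under the alternatives, 392 stayed within their limits and 37 moved. Most of the 429 were counts of called genes between RVVO and sham, which were 0 at the start and had little room to move. Shares of nuclei moved more often. They did so in 4 of 5 alternatives for Notch3 in SMCs and 2 of 5 for Dll4 in ECs. For Notch2 in macrophages, Notch4 in ECs and Hey2 in SMCs it was 3 of 5 each. Of 449 values of single genes 406 kept their direction and side of the threshold, 22 fell below it, 11 rose past it and 10 turned direction. In the arterial contrast, 3 members and 0 pathway genes were called. The members called were 1 with no library block, 0 of 6 tested after thinning to 1000 UMIs, 8 with all nuclei with Ptprb and 6 with sub-clusters, and pathway genes were 9 and 4 in the latter pair, while the share of all genes called went from 2.63% to 0.27%, 1.05%, 19.8% and 11.3%. In the endocardial contrast, with 7 members and 14 pathway genes called, thinning left 1 and 2, no library block gave 8 pathway genes, and all nuclei with Ptprb gave 5, while the share of all genes called went from 32.8% to 24%, 19.8% and 19.2%. Thinning also lowered the number of nuclei and genes tested and changed which nuclei fell in each subtype. Between RVVO and sham, leaving out a library gave 0 to 1 members and 0 to 1 pathway genes in ECs, called as Hey1 and Hes1 without sham 2 (4.91% of all genes), and no low-count filter gave 1 member in glia (0.464%).

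Directions turned for small values. In arterial ECs these were Notch1 after thinning (-0.0092), Notch2 with sub-clusters (0.089) and without sham 2 (0.014, with -0.14 as the lowest value without 1 library), and Heyl with DESeq2 (-0.086), no low-count filter (-0.019), no doublet removal (-0.071) and without RVVO 2 (-5.7e-05, with 0.097 as the highest value without 1 library). In endocardial ECs these were Jag1 with all nuclei with Ptprb (-0.043) and Heyl without RVVO 1 (0.12) and without RVVO 2 (0.080), with -0.18 as the lowest value without 1 library. The cause was not tested.

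Naming each nucleus on its own lowered mean levels to 85.3 CPM for Notch1 in lymphatic ECs, 224 for Notch2 in macrophages, 397, 60.7 and 39.1 for Notch3, Jag1 and Hey2 in SMCs, and 84.8 for Heyl in pericytes. Its shares were 21.4% for Notch2, 23.8% for Notch3 and 3.83% for Hey2. Stricter barcode filters gave 354 CPM for Notch2, 1062 and 64.8% for Notch3 and 105 CPM for Hey2, and no doublet removal 8.01% for Notch4. Shares in the same cell types were higher than at 1000 UMIs. They were 46.4% for Notch2, 91.7% for Notch3, 16.4% for Notch4, 7.53% for Dll4 and 24.2% for Hey2 at 2000 UMIs. With no thinning they were 50.7%, 87.6%, 20.2%, 9.17% and 27.1%, so Notch3 was lower than at 2000 UMIs. Thinning to 2000 UMIs left out 61, 81, 8 and 21 SMCs with fewer UMIs.

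The library numbers of the 2 groups were not taken as pairs. Correlations of the numbered pairs' deviations ran from -0.092 to 0.0088 in the cell types and subtypes checked other than epicardial cells (0.348). Some numbers of nuclei did go with the library number. Epicardial cells were 88, 394, 110 and 492, a fibroblast cluster 0, 66, 0 and 85, and a CM sub-cluster with atrial markers 1, 128, 23 and 165. Whether the libraries of a number shared handling or dissection was not tested. Glia and erythroid nuclei were not checked. With a replicate block 0 members were called between RVVO and sham, and in place of the library block it left 2 members called in arterial ECs.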

Other observations

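Levels of several pathway genes outside the set are given for single cell types, as a description without a test. They are scaled to the UMIs of a cell type and do not say where most counts of a gene lay. For Dtx1, Maml3 and Dtx3 the levels in the remaining cell types are not given. Rbpj, the DNA-binding partner of cleaved Notch, was at 2898, 3649, 2921 and 2677 CPM in macrophages, the cell type with the highest Notch2 level, against 161 ± 22.5 in CMs and 94.4 ± 9.28 in ECs (mean ± SD, n = 4). Dtx1, a Deltex ubiquitin ligase, was at 322, 330.4, 268 and 308 CPM in lymphatic ECs, where Notch1 was as high as in ECs. Maml3, a coactivator of the Notch complex, was at 793 ± 86.3 CPM in SMCs and 486 ± 33.0 CPM in pericytes, and Dtx3 at 317 ± 68.1 CPM in pericytes. These are the cell types in which Notch3 was highest. These genes were chosen after their values were seen.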
